A study of Mus musculus with 6 samples.

Results

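Hyaluronan synthases, link proteins and the main hyaluronan receptor were examined in osteoblasts (OBs) that form ectopic bone. The set holds 10 of the 23284 genes listed, chosen by gene symbol: *Has1*, *Has2*, *Has3*, *Hapln1*, *Hapln2*, *Hapln3*, *Hapln4*, *Vcan*, *Cd44* and *Hyal2*. The genes were listed with their FPKM values on both days already known, so the comparison of the days is given for these 10 genes as a description, with no test. Tests are given only for other genes of the pathway, whose lists were also drawn up with earlier results known, so that their p-values and counts are not independent support.

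The OBs came from adult male *Col2.3*-ECFP mice, in which a type I collagen promoter drives enhanced cyan fluorescent protein in OBs. Each mouse carried a collagen sponge loaded with recombinant human BMP-2 under the skin of the back. ECFP+ cells were sorted at 10 days (day 10, n = 3) or 14 days (day 14, n = 3), to compare OBs of an early and a later stage of bone formation. CD45+ and dead cells had been gated out, and no sample was untreated. Cells of day 10 were released with 1 collagenase digestion and those of day 14 with 2, so the digestion and the day cannot be told apart. The titles place the 3 later samples on day 14, while their free-text descriptions give day 14, 15 and 16, and the titles were used. The labels call the replicates biological, and whether animals were pooled is not given in the sources used here. Each sample has 1 value per gene in FPKM, the number of fragments scaled to transcript length and to the mapped total, so that genes can be set side by side.

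Depth was estimated at 4550000 to 7780000 mapped reads per sample. OB markers were abundant, led by *Col1a1* at 14151 to 34157 FPKM, and all 8 markers had a lower mean on day 14. Of these 8, only *Sp7* was lower without overlap of the days, as were 6.67% of all genes tested. Sums of the 8 markers were 28551 to 54774 FPKM on day 10, and 19921, 38799 and 15779 FPKM in replicates 1, 2 and 3 of day 14. In replicate 2 of day 14, the summed level of 12 chondrocyte markers was 2463 FPKM, against 232 and 171 FPKM in replicates 1 and 3 of that day and 773 to 1609 FPKM on day 10. *Comp* at 1383 FPKM and *Col2a1* at 688 FPKM made up most of this sum. Of the 12 markers, 6 were highest in this library and the rest in replicate 1 of day 10. Replicate 2 of day 14 also had the lowest sum of 12 myeloid markers, 20.4 FPKM, with *Emr1*, *Fcer1g*, *C1qa* and *C1qb* listed at 0. The myeloid sums were 40.5 to 175 FPKM on day 10 and 294 and 680 FPKM in the other day 14 samples. Values that rest on this library are therefore given with and without it. Because the library was singled out by its marker levels, values without it are a description and support nothing. All 7 fibroblast markers had a higher mean on day 14, as had all 12 myeloid and all 8 endothelial markers. The days overlapped for each fibroblast and myeloid marker and for all but 2 endothelial markers. Of all genes tested, 7.59% were higher on day 14 without overlap. Fibroblast sums, led by *Mfap5*, were 351 to 729 FPKM on day 10 and 640 to 1756 FPKM on day 14. Sums of osteoclast markers were 446 to 487 FPKM on day 10 and 627 to 675 FPKM on day 14. They were mostly *Ctsk*, at 403 to 425 FPKM on day 10 and 574 to 614 FPKM on day 14. Of the 6 osteoclast markers, 2 had a higher and 4 a lower mean on day 14. Sums of endothelial markers were 13.1 to 21.1 FPKM on day 10 and 19.4 to 28.6 FPKM on day 14, and those of muscle markers were at most 9.12 FPKM. The part of these cells in the results below was not tested. In sorted bulk samples, fewer cells of a type and less RNA per cell cannot be told apart.

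Hyaluronan is a long unbranched sugar polymer of the extracellular matrix. Unlike other glycosaminoglycans, it is made at the plasma membrane by synthases that extrude the growing chain, from UDP-glucuronic acid and UDP-N-acetylglucosamine. Outside the cell it binds large proteoglycans of the lectican family, a contact that link proteins stabilize, and cells hold it through receptors such as CD44. Hyaluronan-rich coats surround migrating and dividing mesenchymal cells, and in cartilage hyaluronan anchors aggrecan.

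The level of the 10 genes differed widely, and their order was much the same in each sample. *Has1* ranked first among the 10 and *Cd44* second in 6 of 6 samples. *Has2* held place 3 in 5 samples and *Vcan* in the other 1. These neighbours did not differ beyond their spread, at 23.9 ± 4.43 FPKM for *Has2* and 20.6 ± 5.51 FPKM for *Vcan* on day 10 and 32.3 ± 3.27 and 27.4 ± 8.65 FPKM on day 14 (SD, n = 3). *Hapln4*, *Hyal2*, *Hapln1* and *Hapln3* followed in varying order, *Has3* held place 9 and *Hapln2* place 10 in every sample. Of the 10 genes, 8 were above 0 in all 6 samples, and these 8 had a mean above 0.1 FPKM and entered the fit described below.

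**Figure D1:**
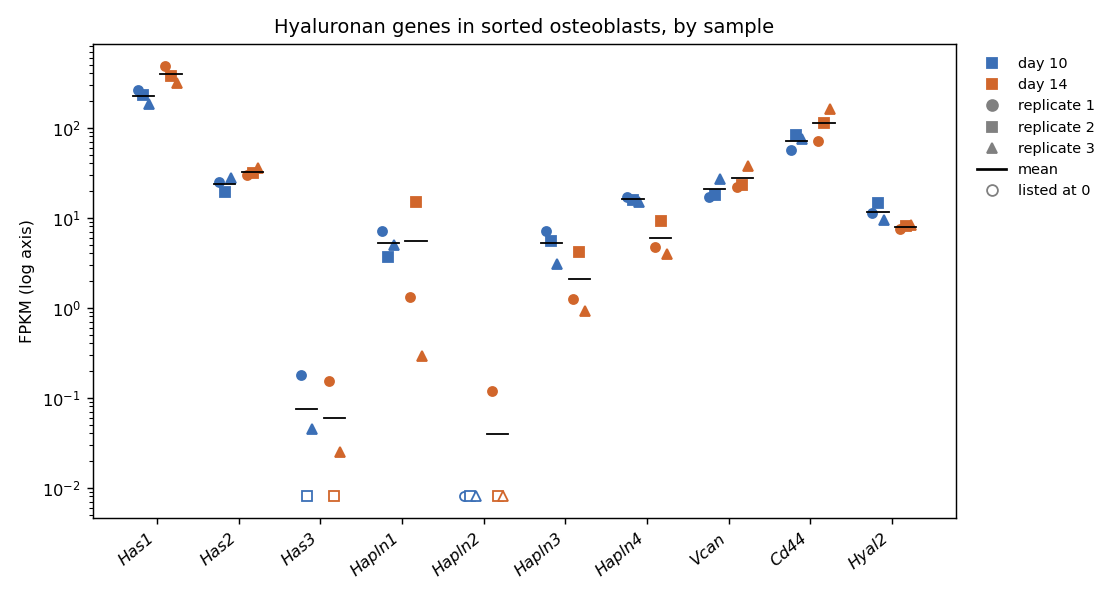
FPKM on a log axis for the 10 genes in each sample, day 10 in blue and day 14 in orange, with a marker shape for each replicate and a bar at the mean. *Has1* sits at the top between 185 and 490 FPKM, *Has3* and *Hapln2* at the bottom, and open markers show values listed at 0.

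*Has1* was the dominant synthase gene in these sorted samples. It encodes one of the 3 mammalian hyaluronan synthases and lies on chromosome 17 from 17843323 to 17855205 on the minus strand (gene positions are those of GENCODE vM21 for mm10 and count from 1). On day 10 it had 260, 231 and 185 FPKM in replicates 1, 2 and 3, and on day 14 490, 377 and 314 FPKM. The lowest value of day 14 exceeded the highest of day 10. Among all 23284 genes, *Has1* ranked between 106 and 302 in a sample. Its mean went from 225 ± 37.6 to 393 ± 89.6 FPKM (SD, n = 3), and the log2 fold change was 0.79 with a standard error of 0.22. Log2 fold changes here are those of FPKM + 0.1, from a limma fit over the 19526 genes with a mean above 0.1 FPKM, and a positive value means higher on day 14. The values rest on an estimated 2376 to 4198 reads per sample.

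*Has2*, the synthase that is essential for heart development in the mouse embryo, was the second synthase by level, with *Has1* FPKM 6.63 to 16.4 times those of *Has2* in a sample. It lies on chromosome 15 from 56665627 to 56694539 on the minus strand. Its values were 24.6, 19.1 and 27.9 FPKM on day 10 and 29.8, 31.0 and 36.0 FPKM on day 14. The days did not overlap here either, but the lowest day 14 value and the highest day 10 value lay close together. The log2 fold change was 0.45 (standard error 0.18). Exons of an antisense gene, *Has2as* (*Has2os* in the annotation), overlap those of *Has2*. It was listed separately at 0.497 to 5.80 FPKM, and whether the counting used the strand is not given in the sources used here, so reads of the pair cannot be told apart.

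*Has3*, the remaining synthase gene, on chromosome 8 from 106870242 to 106884566, was near the limit of detection. It had 0.179, 0 and 0.0450 FPKM on day 10 and 0.153, 0 and 0.0248 FPKM on day 14. These values correspond to an estimated 5, 0, 2, 4, 0 and 1 reads. In the 2 samples at 0, a floor of 3 reads allows up to 0.0962 FPKM on day 10 and 0.0888 FPKM on day 14 (counting error only). With a mean below 0.1 FPKM it was not fitted, and its exons overlap those of *Chtf8*.

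The split of synthase transcripts was similar on both days. *Has1* made up 90.2 ± 2.90% of the summed FPKM of the 3 synthases on day 10 and 92.1 ± 2.28% on day 14 (SD, n = 3), and *Has2* nearly all of the rest. The sum itself was 249 ± 35.7 FPKM on day 10 and 426 ± 86.9 FPKM on day 14 (SD, n = 3).

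The sequence before the *Has1* start is shown because *Has1* was the most abundant of the 10 genes and its days did not overlap, and that of *Gfpt2* because this enzyme of the precursor route, described below, had the smallest adjusted p of the pathway genes tested. Sequences are from RefSeq for GRCm38.p6 and run 5′ to 3′ on the gene's strand. The *Has1* stretch is chr17:17855206-17855438, minus strand, from −250 to −18 relative to the RefSeq start, and the *Gfpt2* stretch is chr11:49793905-49794154, plus strand, from −250 to −1. Capitals mark matches, on either strand, to 8 short motifs. The letters searched were TGANTCA for AP-1, those of NF-kB with GGGA and CC set 4 free bases apart, and TGTGGT for RUNX factors. For SOX factors they were ACAATG, and for the cyclic AMP response element (CRE) they were TGACGTCA. The others were the GC box with GGGCGG, the core promoter element known as the TATA box with TATAAA, and the E-box of helix-loop-helix factors with CACGTG.
Has1: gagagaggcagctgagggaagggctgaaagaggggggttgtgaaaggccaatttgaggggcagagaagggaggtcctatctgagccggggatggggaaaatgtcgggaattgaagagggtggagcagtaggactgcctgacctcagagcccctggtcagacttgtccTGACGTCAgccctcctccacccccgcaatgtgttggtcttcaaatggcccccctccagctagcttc
Gfpt2: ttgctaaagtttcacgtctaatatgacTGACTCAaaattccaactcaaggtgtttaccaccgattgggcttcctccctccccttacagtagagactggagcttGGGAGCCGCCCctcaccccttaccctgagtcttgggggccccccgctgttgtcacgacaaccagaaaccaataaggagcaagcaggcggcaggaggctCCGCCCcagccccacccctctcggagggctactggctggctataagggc
The *Has1* window held 1 match, to the CRE, 83 bases before the start, and this motif occurs in 1.55% of the 32851 promoter windows of 250 bases in the table. The *Gfpt2* window held 1 AP-1 match (in 6.75% of windows), 1 NF-kB match (17.6%), which overlaps 1 of its 2 GC box matches (32.7%). Promoter windows were found for 7 of the 10 genes, *Has2*, *Has3* and *Hapln4* being the others. The window of *Hapln3* held 1 TATA box match (12.4% of windows), 239 bases before the start, and that of *Vcan* 2 GC box matches. That of *Hapln1* held 1 RUNX match (14.05%) and that of *Hapln2* 1 SOX match (10.7%). That of *Hyal2* held 1 NF-kB match and 1 GC box match. That of *Cd44* held none of the 8 motifs. Annotated exons covered all 250 bases of the *Hapln1* window, 72 bases of the *Hapln2* window and 180 bases of the *Hyal2* window. The *Hapln1* and *Hapln2* matches and the GC box match of *Hyal2* lay in these exon bases. A match is a string of letters in a window, and nothing about a factor was measured.

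Other enzymes of the route to hyaluronan were described from a list of 7 genes for the synthesis of the UDP-sugars. None of the 7 had an adjusted p under 0.05 (limma with Benjamini-Hochberg adjustment over all 19526 genes), and 5 had an unadjusted p under 0.05, 4 of them higher and 1 lower on day 14. Over all genes tested, 5.60% had such a p and were higher and 4.40% lower, and 0.0154% had an adjusted p under 0.05. The median log2 fold change of the 7 genes was 0.59, against −0.04 over all genes tested.

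*Gfpt2*, one of 2 isoenzymes for the rate-limiting step of the hexosamine pathway, had 68.0, 136 and 111 FPKM on day 10 and 228, 301 and 347 FPKM on day 14. The days were far apart, and the log2 fold change came to 1.51 (standard error 0.28) with an adjusted p of 0.271 from limma. Its isoenzyme *Gfpt1* had a mean of 7.70 ± 1.24 FPKM on day 10 and 7.72 ± 1.11 FPKM on day 14 (SD, n = 3), which is 0.01 on the log2 scale (standard error 0.20).

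*Ugdh*, which makes UDP-glucuronic acid, had 176, 302 and 201 FPKM on day 10 and 299, 520 and 472 FPKM on day 14. Replicate 1 of day 14 lay just below replicate 2 of day 10, and the other day 14 samples were above all of day 10. Its log2 fold change came to 0.93 (standard error 0.28) with an adjusted p of 0.352 from limma.

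*Uap1*, which makes UDP-N-acetylglucosamine, had 75.3, 86.0 and 95.5 FPKM on day 10 and 125, 166 and 177 FPKM on day 14, so that the days did not overlap (log2 fold change 0.86, standard error 0.18, adjusted p = 0.297 from limma). *Ugp2*, which makes UDP-glucose, was at 34.0 ± 10.9 and 50.1 ± 11.3 FPKM (SD, n = 3) with overlapping samples (log2 fold change 0.59, adjusted p = 0.495 from limma). *Pgm3*, an enzyme between *Gnpnat1* and *Uap1* in the hexosamine route, was the gene with lower values on day 14, at 21.8, 16.2 and 17.9 FPKM against 9.70, 15.0 and 14.6 FPKM (log2 fold change −0.52, adjusted p = 0.472 from limma). *Gnpnat1* had a log2 fold change of 0.02 (standard error 0.25). Beside *Has1*, the entry enzyme *Gfpt2* and the final enzyme *Uap1* of the hexosamine route thus had higher values on day 14 without overlap, *Gnpnat1* overlapped and *Pgm3* was lower.

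**Figure D2:**
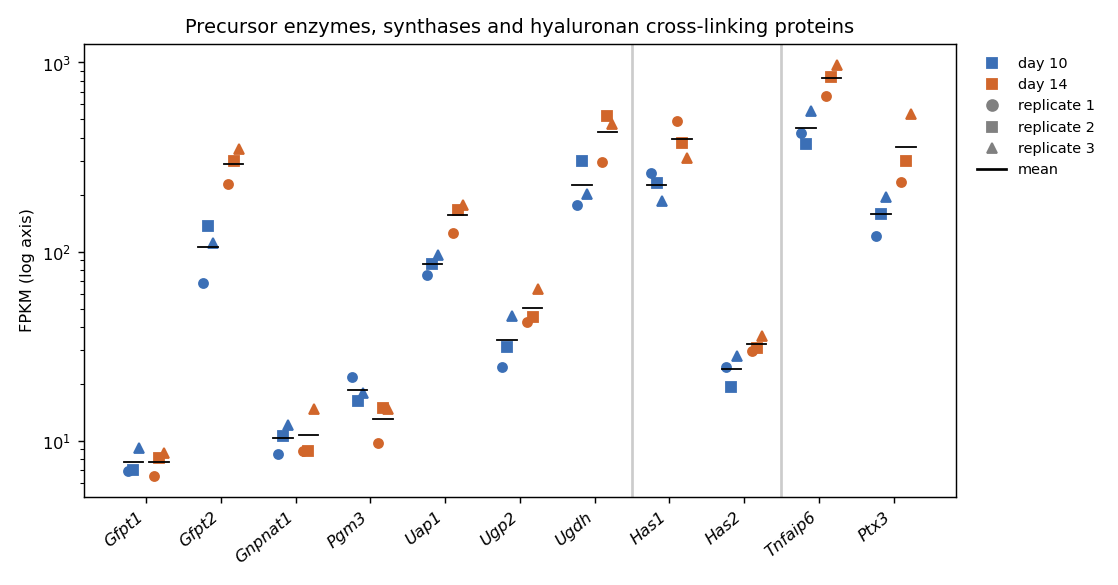
FPKM on a log axis in each sample for 7 precursor enzymes (left), the expressed synthases (middle) and the hyaluronan cross-linking proteins *Tnfaip6* and *Ptx3* (right), with replicates by marker shape and bars at the means. The days did not overlap for *Gfpt2*, *Uap1*, *Has1*, *Has2*, *Tnfaip6* and *Ptx3*, all higher on day 14, while *Gfpt1* lay near 7.7 FPKM on both days.

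*Hapln1*, *Hapln3* and *Hapln4* had lower values in replicates 1 and 3 of day 14 than in any day 10 sample. The 4 link proteins carry modules that bind hyaluronan and a neighbouring proteoglycan. *Hapln1* is the link protein of cartilage, and *Hapln2* and *Hapln4* are best known from the brain. Here *Hapln4* had the largest share of the summed link protein FPKM in 5 of 6 samples, at 60.9 ± 5.80% on day 10 (SD, n = 3) and 63.9% and 76.3% in replicates 1 and 3 of day 14. In replicate 2 of day 14 its share was 32.4% and that of *Hapln1* was 53.0%.

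*Hapln4* lies on chromosome 8 from 70083457 to 70090862. It had 17.1, 15.8 and 15.0 FPKM on day 10 and 4.74, 9.20 and 3.91 FPKM on day 14. The day 10 samples were close together, and all 3 day 14 samples were below them. Day means were 16.0 ± 1.05 and 5.95 ± 2.85 FPKM (SD, n = 3). On the log2 scale the difference was −1.51 (standard error 0.30), and −1.87 (standard error 0.20) without replicate 2 of day 14. Replicates 1 and 3 of day 14 rest on an estimated 74.0 and 94.6 reads.

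*Hapln1*, on chromosome 13 from 89539796 to 89611652, had 7.20, 3.67 and 4.98 FPKM on day 10. On day 14 it had 1.31, 15.0 and 0.292 FPKM. Replicate 2 of day 14 was thus the highest of all 6 samples and the other day 14 samples were the lowest. The fit gave a log2 fold change of −1.35 with a standard error of 1.11, and −2.80 (standard error 0.57) without replicate 2 of day 14. That library also had the highest chondrocyte marker sum. Its OB marker sum, 38799 FPKM, was the highest of day 14 as well, against 19921 and 15779 FPKM in replicates 1 and 3. The part of either cell type in these values was not tested.

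*Hapln3*, on chromosome 7 from 79115102 to 79131018, had 7.16, 5.49 and 3.04 FPKM on day 10 and 1.25, 4.13 and 0.924 FPKM on day 14. Replicate 2 of day 14 fell within the day 10 samples, and replicates 1 and 3 were below all of them. On the log2 scale the difference was −1.48 (standard error 0.55), and −2.10 (standard error 0.41) without that replicate. *Hapln2*, on chromosome 3 from 88021750 to 88027583, was listed at 0 in 5 samples and at 0.118 FPKM, an estimated 0.8 reads, in replicate 1 of day 14. A floor of 3 reads allows up to 0.409 FPKM for it in replicate 1 of day 10.

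The days did not overlap for 4 of the 8 genes fitted, with *Has1* and *Has2* higher and *Hapln4* and *Hyal2* lower on day 14. Over all genes tested, 7.59% were higher and 6.67% lower without overlap, and nothing is read from the count, because the genes were listed with these values known. Without replicate 2 of day 14, *Hapln1* and *Hapln3* joined the genes that were lower without overlap, 4 in all. In these 5 samples, 13.2% of all genes tested were lower without overlap. That library was singled out by cartilage genes, and *Hapln1* is the link protein of cartilage, so nothing is read from this count either.

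**Figure D3:**
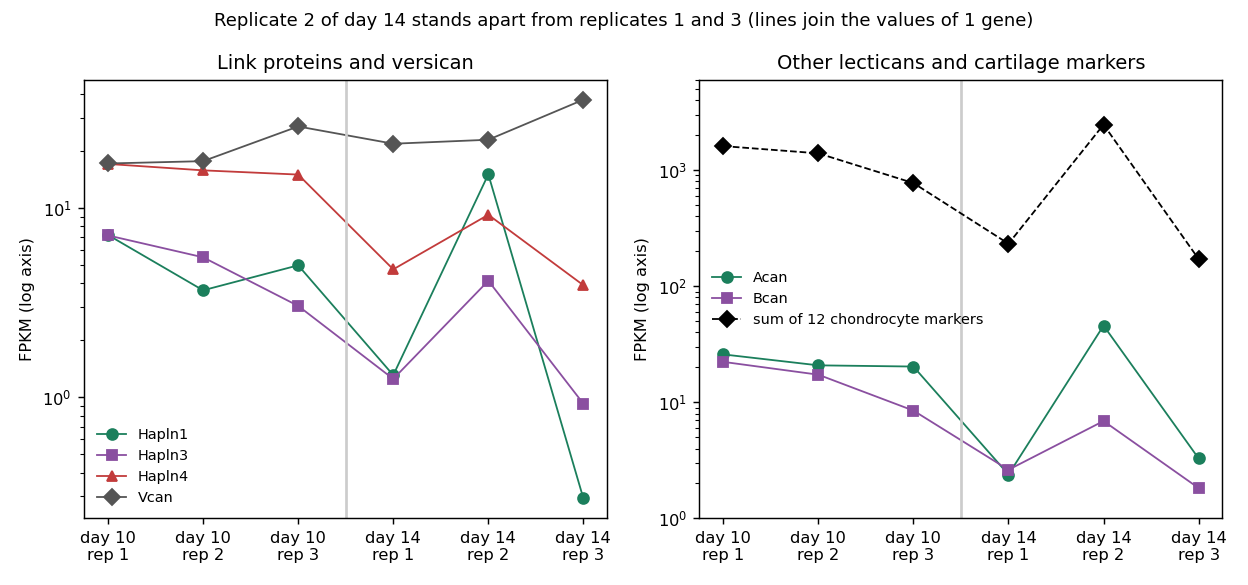
FPKM on a log axis in each sample for *Hapln1*, *Hapln3*, *Hapln4* and *Vcan* (left) and for *Acan*, *Bcan* and the sum of 12 chondrocyte markers (right), with lines joining the values of 1 gene. In replicate 2 of day 14, *Hapln1* reached 15.0 FPKM, *Acan* 45.8 FPKM and the marker sum 2463 FPKM, while *Vcan* was highest in replicate 3 of day 14 at 37.3 FPKM.

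Each link protein gene is the next gene to a lectican gene, the proteoglycans that bind hyaluronan through the same kind of module. *Hapln1* and *Vcan* face each other on chromosome 13, 43.7 kb apart, *Hapln4* and *Ncan* on chromosome 8 with 2.22 kb between them, and *Hapln3* and *Acan* on chromosome 7 with 2 bases between their ends. *Bcan* and *Hapln2* lie on the same strand of chromosome 3, 21.5 kb apart. No annotated gene lies between the partners in any of the 4 pairs.

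**Figure D4:**
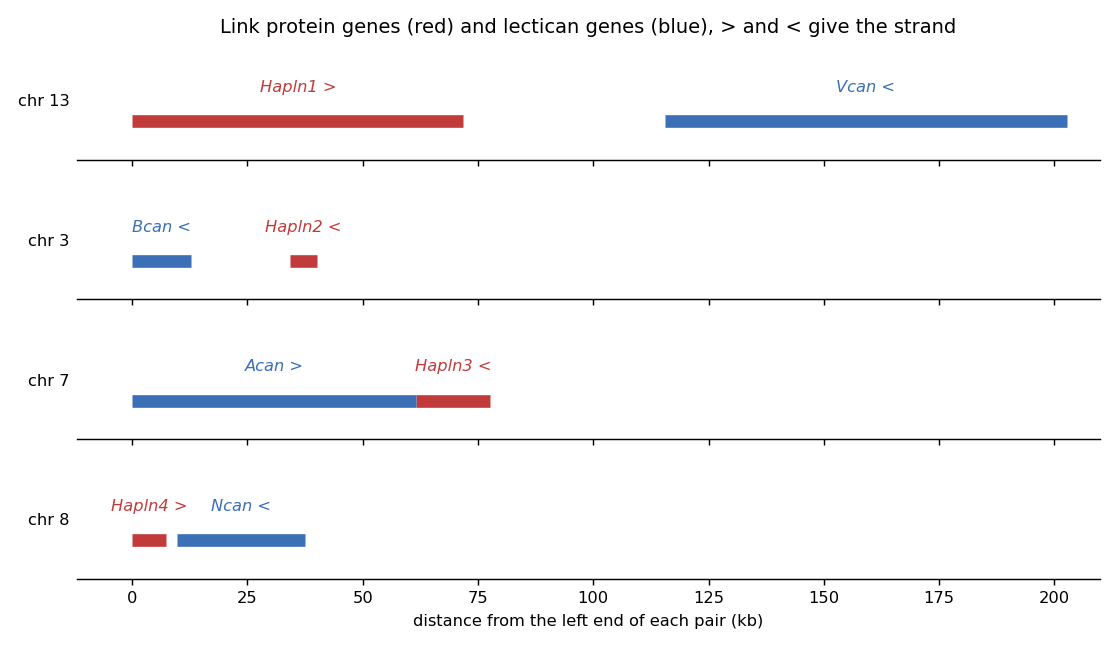
The 4 pairs of link protein genes (red) and lectican genes (blue), drawn to scale in kb from the left end of each pair, with > and < for the strand. *Hapln3* and *Acan* meet at their ends, 2 bases apart, and *Hapln1* and *Vcan* are 43.7 kb apart.

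The partners differed in how their levels lay across the samples. *Acan*, the aggrecan gene, had 25.9, 20.8 and 20.3 FPKM on day 10 and 2.39, 45.8 and 3.28 FPKM on day 14, so that it was highest in the same library as *Hapln1*. Its neighbour *Hapln3* was not highest there, and the ratio of *Acan* to *Hapln3* FPKM ranged from 1.91 to 11.1 over the samples. With ends 2 bases apart and no stated strand, reads near the junction of this pair cannot be assigned with certainty. The log2 fold change of *Acan* was −1.61 (adjusted p = 0.623 from limma) with all samples and −2.94 without replicate 2 of day 14. That library was singled out by cartilage genes such as this one, so that nothing is concluded from a test without it.

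*Bcan*, the brevican gene, was present at 22.3, 17.3 and 8.49 FPKM on day 10 and 2.62, 6.90 and 1.82 FPKM on day 14, although its neighbour *Hapln2* was listed at 0 in 5 samples. No day 14 value reached the lowest of day 10. The difference was −2.17 on the log2 scale (standard error 0.51), with an adjusted p of 0.305 from limma, and −2.71 without replicate 2 of day 14. *Ncan*, next to *Hapln4*, lay between 0.0242 and 0.597 FPKM.

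*Vcan*, which encodes versican, a proteoglycan of loose mesenchyme, lies on chromosome 13 from 89655312 to 89742509. It had 17.2, 17.7 and 27.0 FPKM on day 10 and 21.8, 22.9 and 37.3 FPKM on day 14. The samples of the days overlapped, with the highest value in replicate 3 on each day (log2 fold change 0.40, standard error 0.26, and 0.15 without replicate 3 of day 14). Replicate 3 also had the highest sum of fibroblast markers on each day, 729 and 1756 FPKM, and their part in the *Vcan* values was not tested. The ratio of *Vcan* to *Hapln1* FPKM ranged from 1.52 in replicate 2 of day 14 to 128 in replicate 3. The annotation holds 8 coding transcripts of *Vcan* and 8 of *Cd44*, and with 1 value per gene their isoforms could not be compared.

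*Cd44*, the receptor that binds hyaluronan at the cell surface, lies on chromosome 2 from 102811141 to 102901665. It had 56.0, 83.4 and 74.6 FPKM on day 10 and 70.9, 112 and 160 FPKM on day 14. Replicate 1 of day 14 lay within the day 10 samples, and the other 2 were above them (log2 fold change 0.62, standard error 0.29). It was 0.34 without replicate 3 of day 14 and 0.92 without replicate 1. CD44 is also abundant on myeloid cells. Sums of myeloid markers were 40.5, 175 and 136 FPKM in replicates 1, 2 and 3 of day 10, in the same order as *Cd44*. On day 14 they were 294, 20.4 and 680 FPKM, and replicates 1 and 2 ran in the opposite order to *Cd44*. Replicate 3 of day 14 was highest for both and for the fibroblast markers. The part of such cells in the *Cd44* values was not tested.

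The adaptors that tie CD44 to actin differed among themselves. *Msn* was the most abundant of the 3, at 151 ± 2.65 FPKM on day 10 and 170 ± 31.0 FPKM on day 14 (SD, n = 3), and *Rdx* had a log2 fold change of 0.04 (standard error 0.16). *Ezr* had 17.7, 16.6 and 18.9 FPKM on day 10 and 19.3, 27.4 and 47.8 FPKM on day 14, without overlap (log2 fold change 0.73, standard error 0.30, adjusted p = 0.465 from limma). It was 0.38 without replicate 3 of day 14.

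Of 7 other receptors, 1 had an unadjusted p under 0.05, as had 10.0% of all genes tested, and none an adjusted p under 0.05 from limma. *Layn*, which encodes the receptor layilin, had 8.40, 17.8 and 14.1 FPKM on day 10 and 20.8, 20.2 and 26.2 FPKM on day 14, all above day 10 (log2 fold change 0.79, standard error 0.27, adjusted p = 0.40 from limma). *Hmmr*, a hyaluronan-binding protein of the mitotic spindle, had 2.15, 2.74 and 3.25 FPKM on day 10 and 1.65, 1.55 and 2.10 FPKM on day 14 (log2 fold change −0.59, adjusted p = 0.572 from limma). Beside it, all 6 markers of dividing cells were lower in every day 14 sample than in every day 10 sample, as were 6.67% of all genes tested. Their sums were 23.8 to 37.5 FPKM on day 10 and 14.4 to 18.6 FPKM on day 14. The part of dividing cells in the *Hmmr* values was not tested. *Lyve1* and *Stab2*, markers of lymphatic and sinusoidal endothelium, had means of 0.224 and 0.206 FPKM over the 6 samples. *Tlr2* and *Tlr4*, which can respond to hyaluronan fragments, had means of 7.16 and 3.75 FPKM.

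*Hyal2*, an enzyme anchored at the cell surface that cuts long hyaluronan chains, lies on chromosome 9 from 107567945 to 107572779. It had 11.2, 14.4 and 9.46 FPKM on day 10 and 7.46, 8.01 and 8.36 FPKM on day 14. The 3 values of day 14 lay below those of day 10 and close to each other, although the gap to the lowest day 10 sample was small. Day means were 11.7 ± 2.50 and 7.94 ± 0.454 FPKM (SD, n = 3), and the fit gave −0.53 on the log2 scale (standard error 0.20). The ratio of *Cd44* to *Hyal2* FPKM was 6.23 ± 1.49 on day 10 and 14.2 ± 4.81 on day 14 (SD, n = 3).

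The other genes of hyaluronan breakdown were led by the lysosomal glycosidases. None of the 11 genes in this list had an adjusted p under 0.05 from limma, 1 had an unadjusted p under 0.05 against 10.0% of all genes tested, and the median log2 fold change was −0.17. *Hexa*, a lysosomal enzyme gene, was the most abundant of the list, at 190 ± 39.7 and 247 ± 16.9 FPKM (SD, n = 3) with overlapping samples. *Gusb*, the lysosomal glucuronidase, had a log2 fold change of −0.08 (standard error 0.13). *Hyal1*, beside *Hyal2* on chromosome 9, and *Cemip*, which encodes a hyaluronan-binding protein needed for its breakdown in fibroblasts, had means of 2.70 and 2.27 FPKM. *Hyal3*, *Hyal4*, *Hyal5*, *Hyal6* and *Spam1* each had a mean under 0.5 FPKM.

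Proteins that decorate or cross-link hyaluronan included the most abundant gene of all pathway lists. *Tnfaip6*, which encodes TSG-6, transfers heavy chains onto hyaluronan. It had 425, 371 and 557 FPKM on day 10 and 665, 843 and 975 FPKM on day 14, so that the days did not overlap (log2 fold change 0.88, standard error 0.24, adjusted p = 0.319 from limma). *Ptx3*, a pentraxin that holds such complexes together, had 121, 158 and 195 FPKM on day 10 and 232, 302 and 537 FPKM on day 14, also without overlap (log2 fold change 1.11, standard error 0.32, adjusted p = 0.335 from limma).

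The genes of the heavy chains and of the light chain bikunin (*Ambp*), known as products of the liver, had low levels. *Itih1*, *Itih2*, *Itih3*, *Itih4* and *Ambp* each had a mean under 0.5 FPKM, and *Itih5* a mean of 1.02 FPKM. *Habp4* was at 18.4 ± 1.34 and 16.0 ± 2.07 FPKM (SD, n = 3). Of the 13 genes in this list, 12 were tested, none had an adjusted p under 0.05 from limma, and 2 were higher and 1 lower with an unadjusted p under 0.05, against 5.60% and 4.40% of all genes tested.

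**Figure D5:**
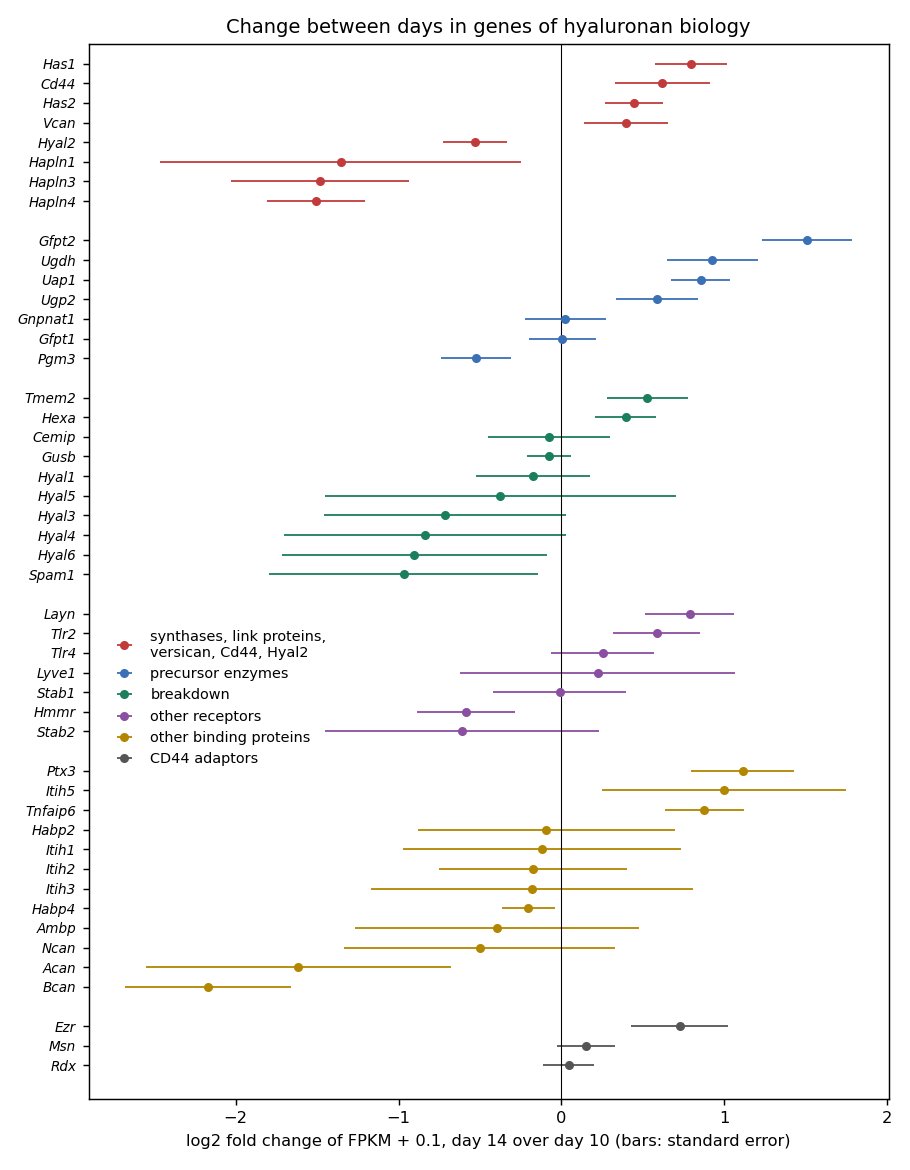
Log2 fold change of FPKM + 0.1, day 14 over day 10, with its standard error for 8 of the 10 genes (red) and for the genes of 5 pathway lists that are reported here, sorted within each list. *Gfpt2* at 1.51 and *Ptx3* at 1.11 lie farthest right, *Bcan* at −2.17 farthest left, and *Hapln1*, *Acan* and the genes of low level have the widest bars.

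Over the 41 genes of the pathway lists, 40 were tested. None had an adjusted p under 0.05 from limma, and 9 were higher and 2 lower on day 14 with an unadjusted p under 0.05, against 5.60% and 4.40% of all genes tested. The median log2 fold change of the 40 genes was −0.04, the same to 2 decimals as that over all genes tested. The days did not overlap for 7 genes that were higher and 3 that were lower, against 7.59% and 6.67% of all genes tested.

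Genes with the most similar profile over the 6 samples were sought among 11162 genes with a mean of at least 1 FPKM, by the root mean square difference of log2(FPKM + 0.1) after each gene's mean was subtracted. For *Hapln1* the nearest genes were *Slc26a7*, *R3hdml*, *Col9a2*, *Sncaip* and *Epha2*, with differences of 0.48 to 0.57. *Col9a2*, a collagen of cartilage, had 36.6 FPKM in replicate 2 of day 14 against 4.48 and 2.40 FPKM in the others of that day. For *Hapln3* they were *Ckb*, *Tmem151a*, *Col11a1*, *Loxl4* and *Mme*, with differences of 0.12 to 0.18. *Ckb* encodes brain-type creatine kinase, and *Col11a1* a fibrillar collagen chain of cartilage, at 230, 220 and 99.8 FPKM on day 10 and 51.4, 130 and 31.9 FPKM on day 14.

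For *Hapln4* the nearest were *Galnt5*, *Psat1*, *Fuk*, *Tmtc2* and *Bbc3* (0.15 to 0.22), and for *Has1* they were *Actr3b*, *Bcr*, *Plcl1*, *Mettl22* and *Hs3st1* (0.09 to 0.16). *Has2* was nearest to *Plce1* (0.06), *Vcan* to *Plekhb2* (0.07) and *Cd44* to *Ncs1* (0.10). For *Hyal2*, the second nearest gene was *Nat6* (0.08), which is named *Naa80* in the annotation and whose exons overlap those of *Hyal1* and *Hyal3* next to *Hyal2*. These neighbours are a description over 6 samples that share their libraries.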

How the data were processed

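Per the labels and the methods, the authors deposited FPKM per gene for 6 libraries of single-end reads. They were computed by Cufflinks 2.2.1 from alignments to mm10 (TopHat 2.0.13 and SAMtools 0.1.19, with Bowtie2 2.2.3). The gene annotation and the handling of multiply mapped reads are not given in the sources used here. The 10 genes and the lists were chosen with earlier results of these data known. In 1 file, 25 symbols turned into dates were restored by position. limma 3.58.1 in R 4.3.3 (eBayes with a mean-variance trend, day as the only factor) was fitted to log2(FPKM + 0.1) for the 19526 genes with a mean above 0.1 FPKM, with Benjamini-Hochberg adjustment over all of them, and was tested on simulated data. With 3 samples against 3, an exact permutation test cannot go below p = 0.1 and was not used.

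Mapped reads were estimated from the steps of values up to 0.3 FPKM in 1977 genes with 1 annotated transcript of 1500 to 8000 bases, with a fragment length of 215 bases, which gave 74.2% to 78.8% of values within 0.1 of a whole read. Floors are the FPKM of 3 reads. Estimated reads per gene use the longest coding transcript, are approximate, and cover counting error only. Named genes are the 10 genes, pathway genes with an unadjusted p under 0.05 or separated days at a mean of at least 1 FPKM, the 3 most abundant of each list, the lecticans, the 5 nearest profiles and the leading markers. Genes of low level in the lists were named in addition, and 1 listed gene is counted but not reported here. Alternatives were pseudocounts of 1 and 0.01, other filters and scalings, no trend, a replicate block, and leaving out each sample. Depth and the spread of 3 samples limit the precision, and p-values measure only the spread between these samples.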

Additional observations from a re-analysis of the deposited data

How the results depend on the processing

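In 14 other settings of processing or samples, *Gfpt2*, *Uap1*, *Ugdh*, *Tnfaip6* and *Ptx3* stayed higher and *Bcan* lower on day 14 with an unadjusted p under 0.05 from limma. The number of pathway genes with such a p was 9 higher and 2 lower, and it ranged from 6 to 10 higher over these settings. Dropping the mean-variance trend left 1 lower gene, as did the replicate block, and leaving out single samples gave 1 to 3. The number with an adjusted p under 0.05 was 0 to 2 with a sample left out, the 2 being *Acan* and *Bcan* without replicate 2 of day 14, which was singled out by cartilage genes, so that these calls support nothing. Of the 8 genes fitted, 2 to 4 were lower without overlap when a sample was left out, and 2 to 3 higher. The 4 came without replicate 2 of day 14, where 13.2% of all genes tested were lower without overlap. With all samples these shares were 6.67% lower and 7.59% higher. The shares for the other samples left out are not given, and nothing is read from these counts. *Has1* kept 90.5% to 92.0% of the synthase FPKM when a sample was left out, against 91.1% with all. The log2 fold change ranged from 0.62 to 0.95 for *Has1*, from −1.87 to −1.26 for *Hapln4*, from −0.67 to −0.37 for *Hyal2*, from 0.34 to 0.92 for *Cd44*, from 0.15 to 0.60 for *Vcan* and from −2.80 to −0.17 for *Hapln1* (−0.17 without replicate 3 of day 14), with no change of sign. Over all genes, 3 had an adjusted p under 0.05 and 3 to 76 with a sample left out, 76 without replicate 2 of day 14. Those with an unadjusted p under 0.05 numbered 581 to 1379 higher and 356 to 1536 lower with a sample left out, and 722 were higher without the trend. The causes were not tested. The values do not settle whether replicate numbers pair the samples. Deviations from the day mean correlated with r from −0.00584 to 0.0887 across genes between samples of equal number. Of the 6 samples, 4 correlated best with their own number. The replicate block gave 1 lower pathway gene, *Bcan*, and 10 higher.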
